A study of Mus musculus with 8 samples.

Results

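Gene expression after anti-CD36 antibodies alone was compared with expression in untreated cells of the mouse line RAW264.7, a macrophage-like line transformed with Abelson leukaemia virus. The anti-CD36 group had 2 libraries from cells given the antibodies at a dilution of 1 in 100 for 12 h, and the untreated group had 2 libraries from cells with no treatment. These 4 of the 8 bulk RNA sequencing libraries of the series were the ones chosen. The others were 2 libraries from cells given lipopolysaccharide (LPS) plus anti-CD36 for 12 h, with no dose in the labels, and 2 from cells given LPS at 50 ng/mL for 12 h. All 8 were labelled wild type and came from the same line. No clone or isotype of the antibodies was given in the labels, and no group was given a control antibody, so binding of CD36 and any other action of the antibodies cannot be told apart. The comparison covered the 10289 of 10639 genes that reached 1 FPKM (fragments per kilobase of transcript, scaled by library size) in at least 2 libraries. Nothing in the labels says that the 2 libraries of a group were separate cultures. The p-values therefore reflect how far these libraries differ from each other, and that spread may be technical.

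CD36 is a scavenger receptor of macrophages, platelets, fat and muscle. It binds oxidized lipoproteins and long-chain fatty acids, carries lipid into the cell and signals through partner receptors that include Toll-like receptors. An antibody held on a macrophage can also be bound by Fc receptors, which signal through the Fc receptor gamma chain and the kinase Syk to phagocytosis and cytokine production. Macrophages keep their lipids in balance through SREBP factors, which drive synthesis and uptake of fatty acids and cholesterol, and LXR factors, which drive cholesterol efflux.

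The libraries held 47900000 and 57392000 reads with anti-CD36, against 55660000 and 71704000 in untreated cells, by the depth recovered from the table. At the depths of all 8 libraries, 3 reads in a gene of 2000 bp equal 0.0209 to 0.0313 FPKM, a limit that covers counting error only. Of 9 macrophage markers, 8 were in the table, and they summed to 4774 and 5396 FPKM with anti-CD36, against 4216 and 3625 FPKM in untreated cells. Most of that sum was Lyz2, with 2873 and 3747 FPKM with anti-CD36, against 2729 and 2177 FPKM in untreated cells. Cd14 and Itgam were also higher in both anti-CD36 libraries. Csf1r was lower, with 259 and 255 FPKM with anti-CD36, against 311 and 306 FPKM in untreated cells, as was Adgre1. Cd68, Fcgr1 and Spi1 overlapped, and none of the 8 passed the test. Of the markers of other cell types, 1 of 7 for T and NK cells (Lck, with 1.72 and 1.87 FPKM with anti-CD36, against 2.00 and 1.89 FPKM in untreated cells), 2 of 6 for B cells (chiefly Ighm), 1 of 6 for granulocytes and 3 of 5 for dendritic cells were in the table. None of the markers of fibroblasts, epithelium or endothelium was, and no marker of any of these cell types passed the test. In bulk libraries, fewer cells of a type and less RNA per cell cannot be told apart.

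Replicates differed more within the anti-CD36 group than within any other, so both are shown throughout, replicate 1 first. The SD over genes of the difference between replicates was 0.451 with anti-CD36, against 0.22 in untreated cells, on the log2(FPKM + 1) scale on which all differences here are given. It was 0.191 with LPS plus anti-CD36 and 0.137 with LPS. Mitochondrially encoded genes made up 15.7% and 6.59% of the summed FPKM with anti-CD36, against 4.7% and 6.62% in untreated cells. Cytosolic ribosomal protein genes made up 7.71% and 13.1% with anti-CD36, against 9.51% and 7.68% in untreated cells. The high mitochondrial share belonged to anti-CD36 replicate 1 and the high ribosomal share to replicate 2.

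Cd36 itself, on chr5:17781690-17888801 (GRCm38, minus strand), was barely expressed in either group. Its level was 0.169 and 0.223 FPKM with anti-CD36, against 0.0400 and 0.117 FPKM in untreated cells. The difference was 0.15 ± 0.11 (SE throughout), with an adjusted p of 0.41 in limma. All 4 libraries stayed far below 1 FPKM, and Cd36 entered the test through the LPS libraries, with 7.98 and 9.08 FPKM with LPS plus anti-CD36, against 4.71 and 5.57 FPKM with LPS. Tlr4, the receptor for LPS, stood at 7.11 and 7.73 FPKM with anti-CD36, against 7.18 and 8.67 FPKM in untreated cells, which overlapped (adjusted p = 0.76).

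Anti-CD36 cells differed from untreated cells mainly by lower genes, most of them by less than 1 on the log2 scale. In limma, 1405 genes passed a Benjamini-Hochberg adjusted p of 0.05 and are called rises or falls here, which is 13.7% of the genes tested. Of these, 313 rose (3.04%) and 1092 fell (10.6%). The median difference was 0.59 for the genes that rose, -0.58 for those that fell and -0.08 over all genes tested. A difference of at least 1 was reached by 16 genes that rose and 45 that fell. For 5412 genes, or 52.6% of those tested, both anti-CD36 libraries lay on the same side of both untreated libraries. That held above for 1721 genes (16.7%), below for 3691 (35.9%), and for all 1405 genes called.

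The split between rises and falls depended on the scaling. With median-ratio size factors it was 421 rises and 603 falls, with quantile normalization 465 and 639, with mitochondrial genes left out of the total 134 and 1276, and with the trend on gene length removed 398 and 357. No called gene changed sign under these scalings, which covered all 1405 with size factors and quantile normalization, 1402 with mitochondrial genes left out and 1373 with the length trend removed. The calls also rest on the spread of the LPS libraries, which the fit of all 8 libraries shares. A fit to the 4 compared libraries alone called 0 genes in limma, with 2045 at an unadjusted p under 0.05, among them all 1405. Weighting libraries by quality also called 0, with 1950 at an unadjusted p under 0.05. Without anti-CD36 replicate 1 the fit called 3730 genes, without replicate 2 it called 2823, and with untreated replicate 1 or 2 left out it called 0, with 2336 and 2033 at an unadjusted p under 0.05. Leaving out an LPS library left 324 or 325, and leaving out a library of LPS plus anti-CD36 left 467 or 505.

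The genes whose groups lay farthest apart were taken in each direction, by the smallest of the 4 differences between an anti-CD36 and an untreated library. That their groups do not overlap therefore follows from the choice. Of the 12 such rises, 4 belong to ribosome assembly and translation. Npm1, the nucleolar chaperone nucleophosmin, had 897 and 857 FPKM with anti-CD36, against 437 and 482 FPKM in untreated cells. It rose by 0.93 ± 0.18 (adjusted p = 0.020). Rpf2, which brings the 5S particle into the forming large ribosomal subunit, had 32.8 and 29.9 FPKM with anti-CD36, against 12.5 and 15.6 FPKM in untreated cells. Its rise was 1.11 ± 0.15 (adjusted p = 0.014). Both anti-CD36 libraries of both genes were well above both untreated ones. Eif2s2, the beta subunit of the initiation factor that delivers the first transfer RNA, had 43.1 and 45.8 FPKM with anti-CD36, against 20.9 and 24.5 FPKM in untreated cells, and it rose by 0.94 ± 0.13. The small nucleolar RNA gene Snord73a had 8.29 and 10.2 FPKM with anti-CD36, against 2.11 and 3.08 FPKM in untreated cells, and it rose by 1.52 ± 0.21. It is annotated over 68 bp, and values of so short a gene are uncertain.

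Secreted and surface proteins were also among these rises. Spp1, which encodes the secreted phosphoprotein osteopontin, had 2227 and 2118 FPKM with anti-CD36, against 1090.4 and 1172 FPKM in untreated cells. It rose by 0.94 ± 0.22 (adjusted p = 0.034). Clec5a, a lectin receptor of myeloid cells that signals through Dap12, had 29.5 and 25.9 FPKM with anti-CD36, against 12.4 and 14.8 FPKM in untreated cells, and it rose by 0.98 ± 0.12 (adjusted p = 0.013). Spink5, an inhibitor of serine proteases, had 27.1 and 24.2 FPKM with anti-CD36, against 7.66 and 11.3 FPKM in untreated cells, and it rose by 1.37 ± 0.18 (adjusted p = 0.014). For all of them both anti-CD36 libraries were well above both untreated libraries.

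The other rises were Emc2, Uchl5, Sarnp, Zfp958 and COX2. Emc2, a subunit of the complex that inserts proteins into the endoplasmic reticulum membrane, had 13.4 and 12.1 FPKM with anti-CD36, against 5.92 and 6.41 FPKM in untreated cells. Uchl5, a deubiquitinase of the proteasome, had 44.2 and 44.9 FPKM with anti-CD36, against 23.3 and 25.4 FPKM in untreated cells. Sarnp, a factor of mRNA export, had 53.5 and 55.9 FPKM with anti-CD36, against 23.8 and 29.2 FPKM in untreated cells. They rose by 0.94 ± 0.11, 0.84 ± 0.11 and 1.02 ± 0.13 in that order. The zinc finger gene Zfp958 had 7.85 and 7.75 FPKM with anti-CD36, against 3.44 and 3.85 FPKM in untreated cells, and it rose by 0.92 ± 0.10. COX2, the mitochondrially encoded subunit of cytochrome oxidase, had 651 and 520.1 FPKM with anti-CD36, against 229 and 263 FPKM in untreated cells, and it rose by 1.24 ± 0.21. Adjusted p was 0.011 to 0.017 for these genes. The calls of COX2 and Spp1 were lost once the trend on gene length was removed, and those of COX2, Spp1 and Npm1 with quantile normalization.

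Of the 12 falls, Pdpr had the widest gap between groups. It encodes the regulatory subunit of pyruvate dehydrogenase phosphatase, lies on chr8:111094630-111137074 (GRCm38, plus strand) and had 2.93 and 3.31 FPKM with anti-CD36, against 9.85 and 11.03 FPKM in untreated cells. It fell by 1.47 ± 0.11 (adjusted p = 0.011). Ago2, the Argonaute that cuts target RNAs, lies on chr15:73095844-73184935 (minus strand) and had 10.2 and 7.99 FPKM with anti-CD36, against 22.6 and 26.7 FPKM in untreated cells. It fell by 1.35 ± 0.14 (adjusted p = 0.011). The anti-CD36 libraries of both genes were close to each other and far below the untreated ones.

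The next falls were in Lrp1, Tns3, Cbl, Abl2 and Dusp4. Lrp1, a large endocytic receptor, had 21.02 and 13.7 FPKM with anti-CD36, against 43.1 and 49.6 FPKM in untreated cells, and it fell by 1.39 ± 0.20. Tns3, a tensin of focal adhesions, had 12.7 and 10.9 FPKM with anti-CD36, against 26.3 and 27.2 FPKM in untreated cells, and it fell by 1.12 ± 0.13. Cbl, a ubiquitin ligase that ends signalling by tyrosine kinase receptors, had 8.24 and 8.65 FPKM with anti-CD36, against 17.97 and 20.4 FPKM in untreated cells, and it fell by 1.09 ± 0.11. The replicates of Cbl and Tns3 were close to each other in each group, while Lrp1 was lower in anti-CD36 replicate 2. Abl2, a tyrosine kinase that acts on actin, had 4.49 and 5.79 FPKM with anti-CD36, against 12.2 and 12.7 FPKM in untreated cells, and it fell by 1.14 ± 0.12. Dusp4, a nuclear phosphatase of MAP kinases, had 11.1 and 11.8 FPKM with anti-CD36, against 23.3 and 23.3 FPKM in untreated cells, and it fell by 0.97 ± 0.10. Adjusted p ran from 0.011 to 0.015 over these genes.

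Among the last of these falls were 2 giant ubiquitin ligases. Herc2 had 3.95 and 3.82 FPKM with anti-CD36, against 8.82 and 10.1 FPKM in untreated cells, and it fell by 1.09 ± 0.11. Ubr4, which recognises destabilising amino-terminal residues, had 10.7 and 6.83 FPKM with anti-CD36, against 21.04 and 23.1 FPKM in untreated cells, and it fell by 1.27 ± 0.19. Slc23a2, the ascorbate transporter, had 7.33 and 7.61 FPKM with anti-CD36, against 15.99 and 15.1 FPKM in untreated cells, and it fell by 0.97 ± 0.10. Both anti-CD36 libraries lay far below both untreated libraries in each gene. Gfod1 had 7.85 and 8.26 FPKM with anti-CD36, against 18 and 17.6 FPKM in untreated cells, and it fell by 1.06 ± 0.09. The immunoglobulin joining segment Ighj2, annotated over 100 bp, had 3.55 and 4.36 FPKM with anti-CD36, against 9.70 and 9.34 FPKM in untreated cells, and it fell by 1.09 ± 0.17, and its values are uncertain for so short a feature.

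**Figure D1:**
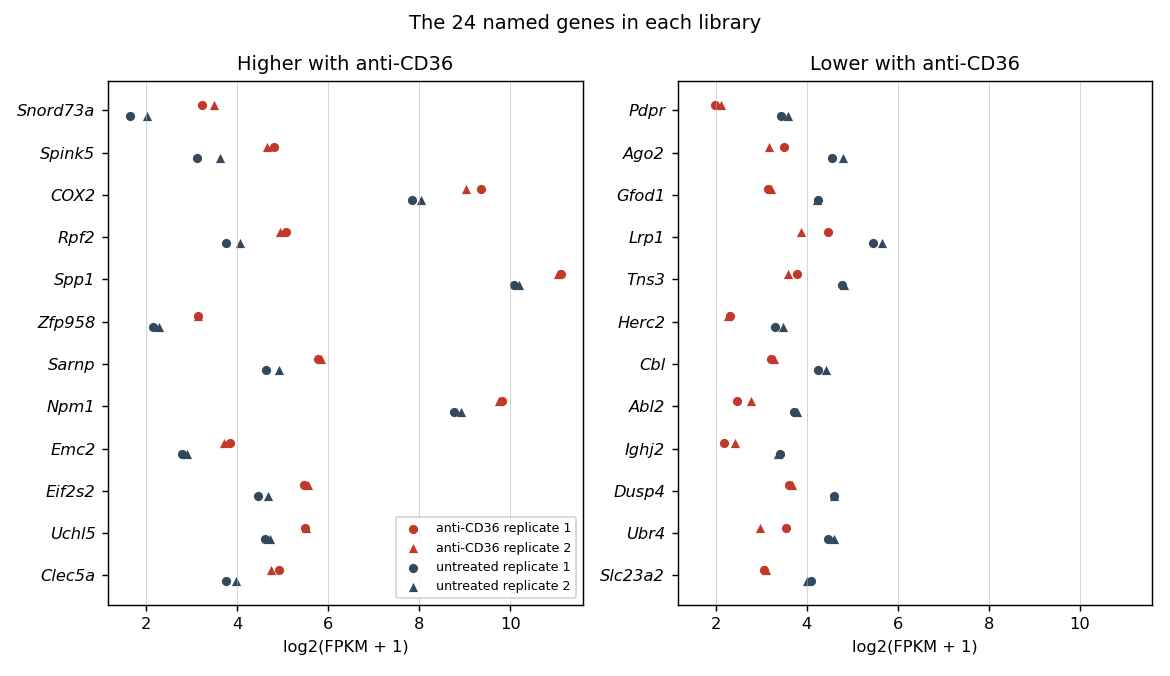
Each point is the log2(FPKM + 1) of a gene in 1 library, with the 12 rises and the 12 falls in separate panels and anti-CD36 drawn above untreated for each gene. The 24 genes were chosen so that the pairs of points do not overlap. Pdpr, at 2.93 and 3.31 FPKM with anti-CD36, against 9.85 and 11.03 FPKM in untreated cells, has the widest gap among the falls.

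Many other genes were high in only 1 of the anti-CD36 libraries. The replicates differed by at least 1 in 425 genes, of which 69 were higher in replicate 1 and 356 in replicate 2, against 11 genes between the untreated replicates. The largest differences toward replicate 2 were in genes of the ribosome, the spliceosome and the respiratory chain. Rpl22l1, a paralog of a ribosomal protein, had 3.66 and 31.7 FPKM with anti-CD36, against 7.47 and 3.79 FPKM in untreated cells. Rps19, of the small ribosomal subunit, had 35.2 and 214 FPKM with anti-CD36, against 91.6 and 48.9 FPKM in untreated cells. Rplp1, of the ribosomal stalk, had 543 and 2696 FPKM with anti-CD36, against 1301 and 683 FPKM in untreated cells. In each, the untreated libraries lay between the anti-CD36 ones, and untreated replicate 1 was the higher of its pair. Rps16, Snrpd2 of the spliceosome, Uqcrh of respiratory complex III, and Cox14 and Fmc1, which help assemble cytochrome oxidase and ATP synthase, had the same order. None of these was called, with adjusted p of 0.451 to 0.981 in limma.

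Toward replicate 1 the largest differences were mitochondrial. ATP8 had 25.8 and 4.10 FPKM with anti-CD36, against 2.99 and 7.66 FPKM in untreated cells. ND2 had 5146 and 1543 FPKM with anti-CD36, against 1222 and 1628 FPKM in untreated cells. ATP6 had 639 and 216 FPKM with anti-CD36, against 94.2 and 164 FPKM in untreated cells, a difference of 1.57 ± 0.51 that missed the threshold (adjusted p = 0.083). ND5 and ND4L also had their highest value in anti-CD36 replicate 1, and none of these subunits was called. Ubap2l had 44.9 and 16.8 FPKM with anti-CD36, against 24.6 and 29.2 FPKM in untreated cells. It was highest in anti-CD36 replicate 1 and lowest in replicate 2, as was Ubap2.

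**Figure D2:**
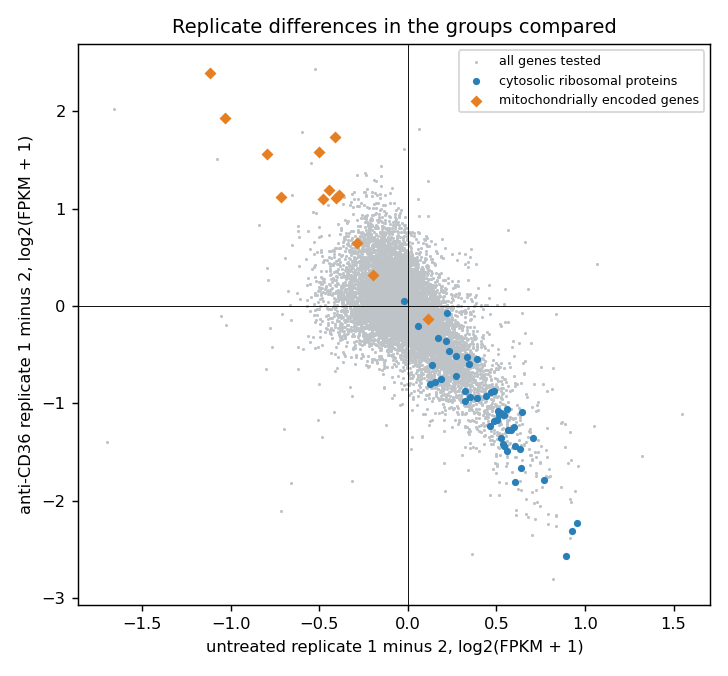
Each grey point is a gene, with the difference between the untreated replicates on the horizontal axis and that between the anti-CD36 replicates on the vertical axis, both in log2(FPKM + 1) and both replicate 1 minus replicate 2. Ribosomal protein genes (blue) lie mostly at the lower right and mitochondrially encoded genes (orange) mostly at the upper left, and the vertical spread (SD 0.451) is larger than the horizontal one (SD 0.22).

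Of 28 Fc receptor and proximal signalling genes tested, which act on a bound antibody, 1 rose and 5 fell. That is 21.4% called, against 13.7% of all genes tested, of which 3.04% rose and 10.6% fell. The median was -0.09, against -0.08 over all genes tested. Fcer1g, the signalling chain shared by activating Fc receptors, had 244 and 251 FPKM with anti-CD36, against 154 and 135 FPKM in untreated cells, and it rose by 0.77 ± 0.14 (adjusted p = 0.019). Syk, the kinase that the gamma chain recruits, had 8.52 and 7.49 FPKM with anti-CD36, against 11.1 and 12.3 FPKM in untreated cells, and it fell by 0.50 ± 0.12 (adjusted p = 0.036). Gab2, an adaptor, had 5.21 and 3.24 FPKM with anti-CD36, against 7.21 and 7.61 FPKM in untreated cells, and it fell by 0.71 ± 0.17. With the length trend removed the list had 0 rises and 1 fall, in Cbl, and with size factors 1 rise and 2 falls. Pik3cd and Pik3ap1, a catalytic subunit and an adaptor of phosphoinositide 3-kinase, fell by 0.54 ± 0.10 and 0.60 ± 0.13, and Cbl was described above.

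Of 15 scavenger receptor and CD36 partner genes, 1 rose and 3 fell (26.7% called, against 13.7% of all genes tested). Msr1, the class A scavenger receptor for modified lipoproteins, had 16.6 and 14.7 FPKM with anti-CD36, against 8.61 and 9.24 FPKM in untreated cells, and it rose by 0.75 ± 0.12 (adjusted p = 0.016). Scarb1, the class B receptor for high density lipoprotein and a relative of CD36, had 14.9 and 14 FPKM with anti-CD36, against 20.3 and 20.9 FPKM in untreated cells, and it fell by 0.49 ± 0.10. Lrp1, described above, also fell.

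Of 17 fatty acid synthesis genes, 0 rose and 7 fell (41.2% called, against 13.7% of all genes tested), with a list median of -0.39, and the medians of the 2 anti-CD36 libraries were -0.39 and -0.41. Scd2, a desaturase that makes monounsaturated fatty acids, had 236 and 282 FPKM with anti-CD36, against 491 and 494 FPKM in untreated cells, and it fell by 0.93 ± 0.15 (adjusted p = 0.016). Scd1, a second desaturase, had 57.4 and 41.9 FPKM with anti-CD36, against 92.4 and 101 FPKM in untreated cells, and it fell by 0.96 ± 0.16. Both anti-CD36 libraries were clearly below both untreated libraries for each. Fasn, fatty acid synthase, had 42.3 and 31.6 FPKM with anti-CD36, against 62.6 and 66.5 FPKM in untreated cells, and it fell by 0.80 ± 0.15. Acaca, acetyl-CoA carboxylase, had 7.89 and 6.45 FPKM with anti-CD36, against 12.4 and 13.99 FPKM in untreated cells, and it fell by 0.80 ± 0.13. Acly, which makes cytosolic acetyl-CoA, had 83.4 and 73.8 FPKM with anti-CD36, against 121 and 127 FPKM in untreated cells, and it fell by 0.65 ± 0.12. Srebf1, the SREBP factor of fatty acid synthesis, had 22.8 and 28.6 FPKM with anti-CD36, against 39.4 and 37.1 FPKM in untreated cells, and it fell by 0.56 ± 0.14. Me1, which supplies NADPH, was the other fall (-0.53). The list had 5 falls with size factors and 4 with the length trend removed.

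Of 23 cholesterol synthesis genes, 0 rose and 5 fell (21.7% called, against 13.7% of all genes tested), with a median of -0.20. Srebf2, the SREBP factor of cholesterol synthesis, had 49.3 and 45.1 FPKM with anti-CD36, against 76.2 and 80.02 FPKM in untreated cells, and it fell by 0.72 ± 0.11 (adjusted p = 0.015). Hsd17b7 and Lss, of the later steps, fell by 0.62 ± 0.11 and 0.54 ± 0.14. The 2 anti-CD36 libraries had list medians of -0.27 and -0.08, and the falls numbered 3 with size factors and 2 with the length trend removed. Of 16 LXR and cholesterol efflux genes, 0 rose and 7 fell (43.75% called), with a median of -0.36. Abcg1, an efflux transporter, had 11.7 and 9.67 FPKM with anti-CD36, against 18.2 and 17.9 FPKM in untreated cells, and it fell by 0.71 ± 0.12. Abca1, which loads cholesterol onto apolipoprotein A-I, was low in all 4 libraries, with 0.357 and 0.360 FPKM with anti-CD36, against 0.901 and 1.01 FPKM in untreated cells, and fell by 0.53 ± 0.10. That list had 2 falls with size factors and 2 with the length trend removed. Mylip, a ubiquitin ligase, Pltp, Npc1, Nceh1 and Ncoa1 were the other falls. Of 20 genes of PPAR control and fatty acid oxidation, 0 rose and 2 fell (10% called), with a median of 0.01. Cpt1a, the gate for fatty acids into mitochondria, had 3.90 and 2.77 FPKM with anti-CD36, against 5.73 and 5.63 FPKM in untreated cells, and it fell by 0.64 ± 0.13.

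The upstream sequences of the called lipid synthesis genes are shown because SREBP factors and NF-Y are known to act there. The 12 called genes of the fatty acid and cholesterol lists included 8 with an entry in the RefSeq promoter table and 6 with a single entry, and the 4 of these with the largest falls are printed. Each run is the 250 bases before the start of the gene's entry in RefSeq (GRCm38.p6), read 5′ to 3′ on the gene's strand. In capitals are the letters CCAAT or ATTGG, the NF-Y box on either strand, and ATCACCCCA, a sterol element searched on either strand. Overlapping matches were counted separately. Fasn is on chr11:120824548-120824797 (minus), Acaca on chr11:84195188-84195437 (plus), Srebf2 on chr15:82147019-82147268 (plus) and Acly on chr11:100528001-100528250 (minus).
Fasn: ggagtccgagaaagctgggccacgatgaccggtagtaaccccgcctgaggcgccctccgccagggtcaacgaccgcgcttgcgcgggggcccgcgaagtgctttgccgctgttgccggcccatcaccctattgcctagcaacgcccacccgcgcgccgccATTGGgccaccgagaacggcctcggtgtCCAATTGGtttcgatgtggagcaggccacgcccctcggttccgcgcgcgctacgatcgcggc
Acaca: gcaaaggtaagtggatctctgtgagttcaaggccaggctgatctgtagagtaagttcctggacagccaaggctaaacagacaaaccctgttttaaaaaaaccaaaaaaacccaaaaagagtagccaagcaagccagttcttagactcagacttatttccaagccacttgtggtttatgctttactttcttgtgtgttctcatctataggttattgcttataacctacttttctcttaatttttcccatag
Srebf2: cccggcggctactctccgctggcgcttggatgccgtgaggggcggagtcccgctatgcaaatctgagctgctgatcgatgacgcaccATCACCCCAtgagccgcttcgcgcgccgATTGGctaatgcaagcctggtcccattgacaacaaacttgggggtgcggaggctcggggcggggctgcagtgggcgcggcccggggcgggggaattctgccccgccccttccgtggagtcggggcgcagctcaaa
Acly: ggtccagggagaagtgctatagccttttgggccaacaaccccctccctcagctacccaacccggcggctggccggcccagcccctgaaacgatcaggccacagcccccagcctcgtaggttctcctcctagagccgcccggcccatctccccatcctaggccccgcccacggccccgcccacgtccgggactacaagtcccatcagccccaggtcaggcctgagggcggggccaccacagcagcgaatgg
Fasn held the NF-Y letters 3 times, and in the second run of capitals CCAAT and ATTGG share 2 bases. Srebf2 held them once together with the sterol letters, while the windows of Acaca and Acly held neither. The Acaca window ends in a run of pyrimidines and AG, letters that can precede an internal exon. It may therefore lie inside the gene, and other starts of these genes were not searched. An entry with CCAAT or ATTGG was found for 6 of the 8 genes and for 37.5% of all genes in the table. ATCACCCCA was found for 1 of the 8 genes. It was in 0.24% of all entries, which is a share of entries and not of genes. These matches describe the letters in the window and are not binding sites.

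The small RNA silencing list had 0 rises and 6 falls among 13 genes, with a median of -0.42. The share called was 46.2%, against 13.7% of all genes tested, of which 10.6% fell. That base is low for this list, because its median gene has 8120 bp and long genes fell more often. The longest of the 5 length classes described below had 520 falls among 2009 genes. Beside Ago2, Ago1 had 7.89 and 7.56 FPKM with anti-CD36, against 13.7 and 14.4 FPKM in untreated cells, and it fell by 0.79 ± 0.10 (adjusted p = 0.013). Ago4 had 0.979 and 1.28 FPKM with anti-CD36, against 1.90 and 2.05 FPKM in untreated cells, and it fell by 0.48 ± 0.11. The 3 members of the GW182 family, which tie Argonautes to mRNA decay, all fell, Tnrc6a by 0.63 ± 0.12, Tnrc6b by 0.77 ± 0.13 and Tnrc6c by 0.64 ± 0.13. The list had 6 falls with size factors and 3, in Ago1, Ago2 and Tnrc6b, with the length trend removed.

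Chromatin regulators had 0 rises and 13 falls among 34 genes (38.2% called, against 13.7% of all genes tested), with a median of -0.55. The median was -0.39 in anti-CD36 replicate 1 and -0.89 in replicate 2. Tet3, which oxidises methylated cytosine, had 2.81 and 2.64 FPKM with anti-CD36, against 6.19 and 7.23 FPKM in untreated cells, and it fell by 1.05 ± 0.11. Kmt2a, which methylates histone H3, had 3.46 and 2.04 FPKM with anti-CD36, against 6.16 and 7.92 FPKM in untreated cells, and it fell by 1.12 ± 0.19. The histone acetyltransferase Ep300 had 7.22 and 3.94 FPKM with anti-CD36, against 10.6 and 12.7 FPKM in untreated cells, and it fell by 0.99 ± 0.23. Of these, Tet3 had close replicates, while Kmt2a and Ep300 were lowest in anti-CD36 replicate 2. The other methyltransferases that fell were Kmt2b, Kmt2c, Kmt2d and Ehmt1, and the remodellers were Chd4, Chd7 and Ep400. Giant ubiquitin ligases and traffic proteins had 0 rises and 11 falls among 22 genes (50% called), with a median of -0.55. Vps13c, a lipid transfer protein between organelles, had 8.07 and 8.14 FPKM with anti-CD36, against 15.4 and 18.7 FPKM in untreated cells, and it fell by 0.98 ± 0.13. Rnf213 had 11.9 and 9.43 FPKM with anti-CD36, against 19.9 and 23.6 FPKM in untreated cells, and it fell by 0.97 ± 0.14. With the length trend removed, the chromatin list had 8 falls and the giant proteins 6 falls and 2 rises.

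Of 24 genes of the actin and membrane skeleton, 0 rose and 7 fell (29.2% called, against 13.7% of all genes tested), with a median of -0.17. Vcl, vinculin, had 2.64 and 2.51 FPKM with anti-CD36, against 6.55 and 6.75 FPKM in untreated cells, and it fell by 1.10 ± 0.10 (adjusted p = 0.011). The filamin Flna fell by 0.68 ± 0.12, the talins Tln1 and Tln2 by 0.77 ± 0.16 and 0.40 ± 0.09, Plec by 0.93 ± 0.13 and Sptbn1 by 0.52 ± 0.14. With size factors 4 members fell, and with the length trend removed 3. The shares called among motors and integrins were near that of all genes. Of 26 motor genes, 0 rose and 4 fell (15.4%). Dync1h1, the heavy chain of cytoplasmic dynein, had 13.8 and 8.17 FPKM with anti-CD36, against 25.1 and 29.6 FPKM in untreated cells, and it fell by 1.28 ± 0.21, and the kinesins Kif1b, Kif1c and Kif13b were the others. Of 12 integrins, 0 rose and 2 fell (16.7%). Itgav, the alpha V chain, had 3.39 and 3.26 FPKM with anti-CD36, against 6.67 and 8.13 FPKM in untreated cells, and it fell by 0.95 ± 0.14, and Itga5 fell by 0.50 ± 0.11.

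Insulin and mTOR signalling had 0 rises and 6 falls among 19 genes (31.6% called), with a median of -0.39. Pdpk1, the kinase that activates Akt, had 4.61 and 5.39 FPKM with anti-CD36, against 10.1 and 10.4 FPKM in untreated cells, and it fell by 0.91 ± 0.11. Insr, the insulin receptor, had 1.62 and 1.66 FPKM with anti-CD36, against 3.29 and 3.78 FPKM in untreated cells, and it fell by 0.78 ± 0.10. Foxo3, Mtor, Deptor and Tsc1 fell by 0.46 to 0.91. Of 29 genes of the pyruvate dehydrogenase complex and the TCA cycle, 1 rose and 3 fell (13.8% called, against 13.7% of all genes tested). Pdp2, a catalytic partner of Pdpr, had 5.14 and 6.43 FPKM with anti-CD36, against 8.63 and 9.06 FPKM in untreated cells, and it fell by 0.54 ± 0.13, Pcx, pyruvate carboxylase, fell by 0.42 ± 0.10, and Sucla2 rose by 0.55 ± 0.13. Of 29 hypoxia and glycolysis genes, 1 fell and 0 rose (3.45% called), with a median of -0.20. It was Hk2, a hexokinase, with 33.4 and 30.7 FPKM with anti-CD36, against 51.1 and 54.9 FPKM in untreated cells.

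Rises without falls were seen in the inflammasome and pyroptosis list, with 6 rises and 0 falls among 20 genes and a median of 0.10. The share called was 30%, against 13.7% of all genes tested, of which 3.04% rose and 10.6% fell. Casp1, which cleaves interleukin precursors and gasdermin D, had 9.22 and 10.7 FPKM with anti-CD36, against 4.61 and 5.38 FPKM in untreated cells, and it rose by 0.87 ± 0.13 (adjusted p = 0.015). Casp4, a caspase that senses cytosolic LPS, had 2.29 and 2.22 FPKM with anti-CD36, against 0.881 and 1.26 FPKM in untreated cells, and it rose by 0.66 ± 0.11. Il18, a cytokine that Casp1 activates, had 20.97 and 22.4 FPKM with anti-CD36, against 15.1 and 14.2 FPKM in untreated cells, and it rose by 0.54 ± 0.12. The lower anti-CD36 library was above the higher untreated one in each. The list had 4 rises with the length trend removed and 3 with mitochondrial genes left out. Most of its rises were no longer called with either LPS library left out. Casp8, Mlkl, which executes necroptosis, and Gsdme, a pore former, rose by 0.54 ± 0.10, 0.42 ± 0.11 and 0.48 ± 0.11.

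Mitosis genes also rose more often than they fell, with 10 rises and 1 fall among 41 and a median of 0.19. The share called was 26.8%, against 13.7% of all genes tested, of which 3.04% rose and 10.6% fell. Nusap1, a spindle protein, had 35.3 and 26.98 FPKM with anti-CD36, against 14.8 and 18.97 FPKM in untreated cells, and it rose by 0.84 ± 0.20 (adjusted p = 0.034). Smc4, a condensin subunit, had 57.3 and 53.5 FPKM with anti-CD36, against 24.6 and 36.3 FPKM in untreated cells, and it rose by 0.87 ± 0.21 (adjusted p = 0.036). Kif20b, a kinesin of cell division, had 16.6 and 13.8 FPKM with anti-CD36, against 5.99 and 8.88 FPKM in untreated cells, and it rose by 0.96 ± 0.21 (adjusted p = 0.030). In each, untreated replicate 1 was the lowest of the 4 libraries. The list had 15 rises with the length trend removed and 13 with size factors, but 1 with mitochondrial genes left out and 1 with any LPS or LPS plus anti-CD36 library left out. The kinetochore and checkpoint genes Ndc80, Nuf2, Bub1 and Mad2l1 rose by 0.59 to 0.67, as did Hmmr and Top2a, and Kif4 by 0.49 ± 0.13. The fall was Espl1, separase, with 11.6 and 11.5 FPKM with anti-CD36, against 19.1 and 19.9 FPKM in untreated cells. Of 38 DNA replication genes, 1 rose, Tyms (0.54), and 0 fell (2.63% called), with a median of 0.07.

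Heat shock proteins and chaperones had 3 rises and 0 falls among 24. That is 12.5% called, against 13.7% of all genes tested, of which 3.04% rose. Hsp90aa1, the inducible cytosolic HSP90, had 223 and 239 FPKM with anti-CD36, against 101 and 132 FPKM in untreated cells, and it rose by 0.99 ± 0.17 (adjusted p = 0.017), and Dnaja1 and Tcp1 rose by 0.58 ± 0.14 and 0.43 ± 0.11. Proteasome subunits had 3 rises and 0 falls among 36 (8.33% called). Psmc6, an ATPase of the regulatory particle, had 38.5 and 42.9 FPKM with anti-CD36, against 18.7 and 23.9 FPKM in untreated cells, and it rose by 0.91 ± 0.14, and Psma4 and Psmd12 rose by 0.71 ± 0.11 and 0.54 ± 0.12. Mitochondrially encoded genes had 3 rises and 0 falls among 13 (23.1% called). Their median of 1.06 was 1.80 in anti-CD36 replicate 1 and 0.70 in replicate 2. Beside COX2, ND4 had 2258 and 1051 FPKM with anti-CD36, against 507 and 707 FPKM in untreated cells, and it rose by 1.36 ± 0.36 (adjusted p = 0.048), and COX3 had 342 and 217 FPKM with anti-CD36, against 117 and 143 FPKM in untreated cells, and it rose by 1.06 ± 0.25. Nuclear-encoded respiratory chain genes had 2 rises, Uqcrb (0.73) and Atp5j (0.50), and 0 falls among 46, with medians of -0.17 in replicate 1 and 0.70 in replicate 2. Cytosolic ribosomal proteins had 0 calls among 47 in limma and 8 at an unadjusted p under 0.05, with medians of -0.10 and 0.94. These lists turned on which anti-CD36 library was kept. Without replicate 1 there were 41 rises among ribosomal proteins, 33 among nuclear-encoded respiratory chain genes, 21 among proteasome subunits and 4 among mitochondrially encoded genes. Without replicate 2 there were 1, 2, 5 and 12 rises in the same order. Annexins and S100 proteins had 2 rises and 0 falls among 14 (14.3% called). Anxa1, an annexin that dampens inflammation, had 32.6 and 54.1 FPKM with anti-CD36, against 20.9 and 19.8 FPKM in untreated cells, and it rose by 1.01 ± 0.21, and Anxa3 rose by 0.54 ± 0.11.

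Among 11 chemokines tested 0 were called in limma, with 3 at an unadjusted p under 0.05, and among 15 inflammatory cytokines Il18 alone was. In lists this small, these counts are near what the 13.7% of all genes called would give. Tnf had 71.4 and 55.8 FPKM with anti-CD36, against 50.8 and 54.99 FPKM in untreated cells, and its difference was 0.25 ± 0.16 (adjusted p = 0.32). Il1b had 0.317 and 0.448 FPKM with anti-CD36, against 0.188 and 0.307 FPKM in untreated cells, with a difference of 0.15 ± 0.11 (adjusted p = 0.42). Ccl3 had 37.3 and 37.4 FPKM with anti-CD36, against 40.1 and 39.7 FPKM in untreated cells, with a difference of -0.09 ± 0.17. Nos2, the inducible nitric oxide synthase, was lower, with 18.2 and 13.3 FPKM with anti-CD36, against 28.2 and 31.6 FPKM in untreated cells, and fell by 0.90 ± 0.17 (adjusted p = 0.022). Slc7a1, an arginine transporter, had 10.8 and 10.2 FPKM with anti-CD36, against 19.5 and 19.8 FPKM in untreated cells, and it fell by 0.84 ± 0.10, and these were the 2 falls among 17 genes of nitric oxide, arginine and itaconate, with 0 rises.

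The shares called in the next lists were near or below the 13.7% of all genes tested. Of 48 interferon-stimulated genes, 5 rose and 3 fell (16.7% called), with a median of 0.20. Phf11b had 17.3 and 12.98 FPKM with anti-CD36, against 6.93 and 8.43 FPKM in untreated cells, and it rose by 0.89 ± 0.17 (adjusted p = 0.022), and Phf11d, its paralog, rose by 0.73 ± 0.14. Ifi44 had 23.6 and 20.7 FPKM with anti-CD36, against 12.4 and 15.03 FPKM in untreated cells, and it rose by 0.66 ± 0.13, and Xaf1 and Ifi204 were the other rises. The falls were Stat2, which carries the interferon signal to the nucleus (-0.65), Adar, an RNA editing enzyme (-0.59), and Oas3 (-0.56). Of 29 Toll-like receptor and adaptor genes, 1 rose and 3 fell (13.8% called). Ly86, a partner of the receptor Cd180, had 40.01 and 34.5 FPKM with anti-CD36, against 25.99 and 25.3 FPKM in untreated cells, and it rose by 0.52 ± 0.11, while the adaptors Traf3, Traf6 and Tollip fell by 0.52 ± 0.11, 0.48 ± 0.12 and 0.53 ± 0.10. Of 22 NF-kB genes, 0 rose and 2 fell, the feedback gene Tnfaip3 with 3.53 and 3.60 FPKM with anti-CD36, against 4.99 and 5.46 FPKM in untreated cells and Tnfaip2 (-0.58). Of 28 immediate early genes, 0 rose and 3 fell, Dusp4, Fosl2 (-0.70) and Mafk (-0.44).

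Lineage genes of macrophages had 2 rises and 2 falls among 23 (17.4% called, against 13.7% of all genes tested). The lectin receptors Clec4e, with 16.8 and 15.9 FPKM with anti-CD36, against 10.9 and 10.8 FPKM in untreated cells, and Clec7a, with 1.95 and 1.48 FPKM with anti-CD36, against 0.933 and 0.862 FPKM in untreated cells, rose by 0.55 ± 0.11 and 0.51 ± 0.11. Cx3cr1, the fractalkine receptor, had 81.3 and 56.5 FPKM with anti-CD36, against 108 and 113 FPKM in untreated cells, and it fell by 0.70 ± 0.18 (adjusted p = 0.043), and Cd33 fell by 0.68 ± 0.14. Of 19 genes of MHC and antigen presentation, 0 rose and 1 fell, the transactivator Nlrc5 (-0.44). The unfolded protein and integrated stress response list had 1 rise and 5 falls among 25 (24% called). Ern1, the endoplasmic reticulum sensor IRE1 alpha, had 1.80 and 1.39 FPKM with anti-CD36, against 3.57 and 3.68 FPKM in untreated cells, and it fell by 0.84 ± 0.11. Sel1l, Edem1, Eif2ak3 and Atf6 fell by 0.43 to 0.71, and Asns, asparagine synthetase, rose by 0.54 ± 0.12. In the p53 and BCL2 list 0 rose and 3 fell among 31 (9.68% called). Cflar, an inhibitor of Casp8, had 3.50 and 4.03 FPKM with anti-CD36, against 6.53 and 7.72 FPKM in untreated cells, and it fell by 0.77 ± 0.12, Bcl2l11, which encodes the death protein BIM, fell by 0.63 ± 0.10, and Zmat3 by 0.58 ± 0.12.

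Autophagy genes had 2 rises and 4 falls among 29 (20.7% called, against 13.7% of all genes tested). Wdfy3, an adaptor for aggregates, had 4.09 and 2.87 FPKM with anti-CD36, against 8.05 and 9.63 FPKM in untreated cells, and it fell by 1.14 ± 0.16, and Tax1bp1, a cargo receptor, had 14.9 and 14.1 FPKM with anti-CD36, against 7.40 and 10 FPKM in untreated cells, and it rose by 0.68 ± 0.14. Of 37 lysosomal genes, 0 rose and 2 fell, Npc1 (-0.59) and Mitf (-0.53). Splicing factors had 2 rises and 4 falls among 40 (15% called). The largest fall was in Prpf8, a core protein of the spliceosome, at 72.3 and 46.1 FPKM with anti-CD36, against 95.98 and 109 FPKM in untreated cells. NRF2 and iron genes had 1 rise, the metallothionein Mt1 with 209 and 146 FPKM with anti-CD36, against 115 and 105 FPKM in untreated cells, and 0 falls among 26.

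**Figure D3:**
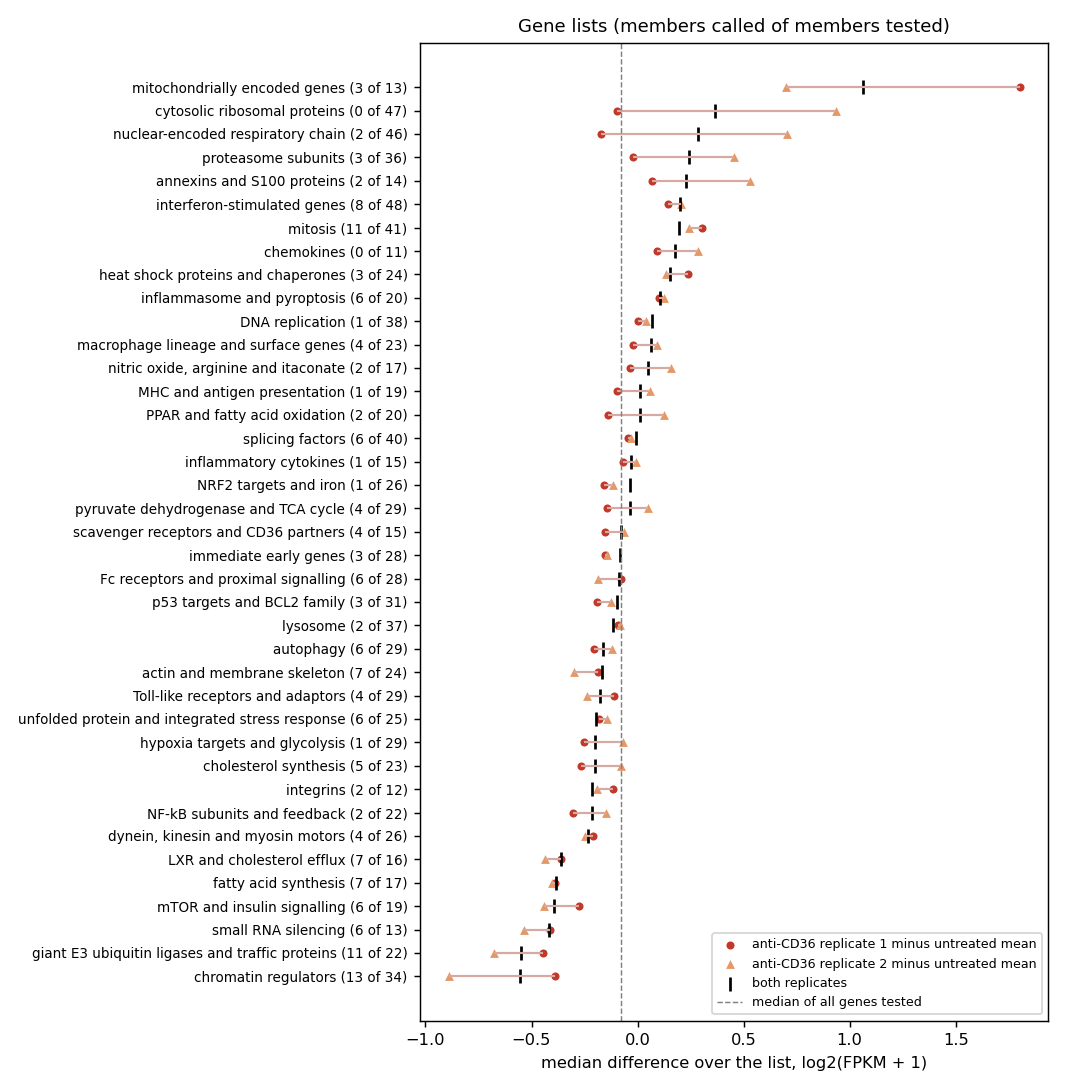
For each of the 39 gene lists, the median difference from the untreated mean over the tested members is drawn in log2(FPKM + 1) for anti-CD36 replicate 1 (circle), replicate 2 (triangle) and both (bar), with the number called of the number tested and the median of all genes (-0.08) as a dashed line. The 2 replicates lie together for fatty acid synthesis (-0.39 and -0.41) and far apart for ribosomal proteins (-0.10 and 0.94) and mitochondrially encoded genes (1.80 and 0.70).

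Falls were more frequent among long genes. The median exon length was 7280 bp for genes that fell, 3401 bp for genes that rose and 4333.5 bp for all tested genes with a length. Across 10048 genes, which are not independent replicates, Spearman's rho of the difference with exon length was -0.447. When genes were split into 5 classes of about equal size by length, the shortest class (median 1570 bp) had 88 rises, 33 falls and a median difference of 0.13. The longest class (median 9694 bp) had 37 rises, 520 falls and a median difference of -0.29. The same order held in each anti-CD36 library, with medians of -0.05 for the shortest and -0.23 for the longest class in replicate 1, and 0.30 and -0.33 in replicate 2. The untreated replicates also differed along length, with a rho of -0.478 for replicate 1 minus replicate 2, and so did LPS plus anti-CD36 against LPS, with a rho of -0.477.

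With the trend on length removed, 755 genes were called, of which 536 were among the 1373 called genes with a length. Of the 24 genes named first, 22 kept the call. Of the 161 called genes in the 39 lists, 79 kept the call and 82 lost it. Among those lost were Fcer1g (adjusted p = 0.10), Syk (0.17), Gab2 (0.088), Pik3cd (0.069) and Pik3ap1 (0.072), Ago4 (0.13), Tnrc6a (0.080) and Tnrc6c (0.087), Fasn (0.056), Srebf1 (0.11), Lss (0.36), Scarb1 (0.15), Abca1 (0.14), Phf11b (0.16), Il18 (0.22), Mlkl (0.18), Uqcrb (0.16), ND4 (0.15) and COX3 (0.23), with limma p-values adjusted over all genes with a length. Cflar (0.051), Cd33 (0.056) and Flna (0.081) were also lost, while Scd1, Scd2, Acaca, Acly, Srebf2, Ago1, Tet3, Vcl, Casp1, Msr1 and Nos2 kept theirs. The medians of the chromatin list, whose median gene has 11115 bp, and of the giant ligase and traffic list, at 16744.5 bp, moved to -0.31 and -0.21. The median of the fatty acid synthesis list (4892 bp) moved to -0.31, and that of the mitosis list (5386 bp) to 0.35. What part length played in the remaining differences was not tested.

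**Figure D4:**
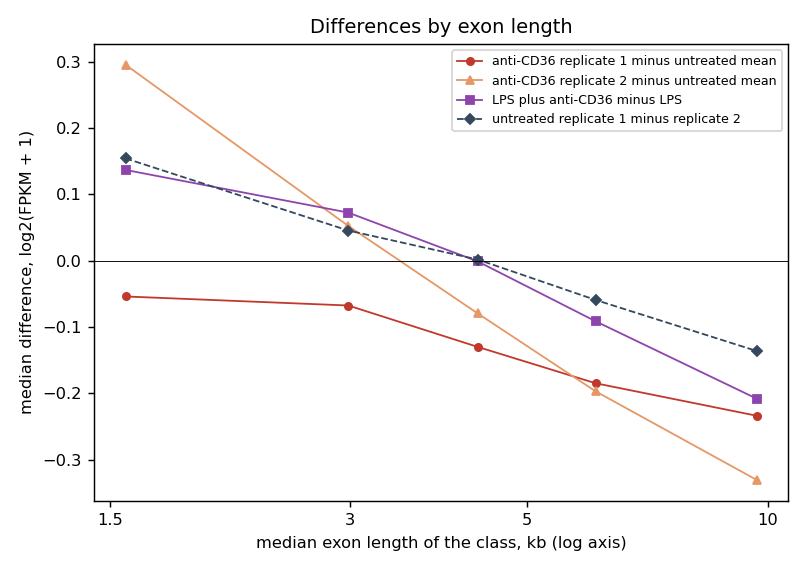
Genes were split into 5 classes by exon length, and the median difference of each class in log2(FPKM + 1) is plotted against its median length on a log axis, for the anti-CD36 libraries against the untreated mean, for the untreated replicates and for LPS plus anti-CD36 minus LPS. The lines for anti-CD36 fall with length, to -0.23 in replicate 1 and -0.33 in replicate 2 at 9694 bp.

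The antibodies were also given together with LPS, and LPS plus anti-CD36 against LPS shares no library with the comparison above. The fit of all 8 libraries gives both comparisons the same spread for each gene, however. A gene with a small spread is therefore called more easily in both, and the calls are not independent. There 183 genes were called, 1.78% of those tested. Of the called genes 87 were shared, which is 6.19% of the 1405 called without LPS and 47.5% of the 183 called with it. The direction was the same in 86, with 83 lower and 3 higher in both (Apip, Serpinb6b and Rpp38). Prelid2 was the exception, with 0.60 without LPS and -0.85 with it. The genes lower in both had a median exon length of 7526 bp. Across genes, which are not independent, Pearson's r of the 2 antibody differences was 0.471 (n = 10289), and 0.349 with the length trend removed (n = 10048).

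Of the 12 falls named first, 8 were called lower with LPS too, against 1.42% of all genes, and 12 lay fully below LPS, against 35.6% of all genes. The 12 were chosen among called genes, whose spread both comparisons share, so 1.42% is not a like base for the 8. Both comparisons also followed gene length, as given above. Pdpr had 1.52 and 1.70 FPKM with LPS plus anti-CD36, against 3.52 and 3.95 FPKM with LPS, a difference of -0.86 (adjusted p = 0.021). Gfod1 had 9.57 and 9.41 FPKM with LPS plus anti-CD36, against 20.5 and 20.6 FPKM with LPS, a difference of -1.04 (adjusted p = 0.010), close to its -1.06 without LPS. Ago2 had 10.4 and 11.4 FPKM with LPS plus anti-CD36, against 19.1 and 19.3 FPKM with LPS, a difference of -0.77 (adjusted p = 0.048). Both libraries of LPS plus anti-CD36 were below both LPS libraries in each. Tns3, Cbl, Abl2, Dusp4 and Slc23a2 were the others called, at -0.77 to -0.61. Of the 12 rises, 0 were called with LPS in limma, 2 had an unadjusted p under 0.05, and 6 lay fully above LPS, against 28.5% of all genes.

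Beyond these genes, Scd2 was lower in both settings, with 59.2 and 61.6 FPKM with LPS plus anti-CD36, against 98.5 and 120.3 FPKM with LPS (-0.84). Insr and Pdpk1 had differences of -0.60 and -0.72 with LPS, Slc7a1 -0.70, Cflar -0.93, Cd33 -0.93 and Tet3 -0.58, and all were called. Other genes lower in both were taken after their values were seen. Atp7a, a copper pump, had -1.40 without and -1.15 with LPS. Vasn, a membrane protein that binds TGF-beta, had -1.43 and -1.40. Kcnj2, an inward rectifier potassium channel, had -0.74 and -1.45, and Nfat5, a transcription factor of osmotic stress, had -0.76 and -1.08. The difference between the antibody effects with and without LPS was called for 1 gene, Akap12, or 0.00972% of those tested, and 1396 genes had an unadjusted p under 0.05 in limma.

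**Figure D5:**
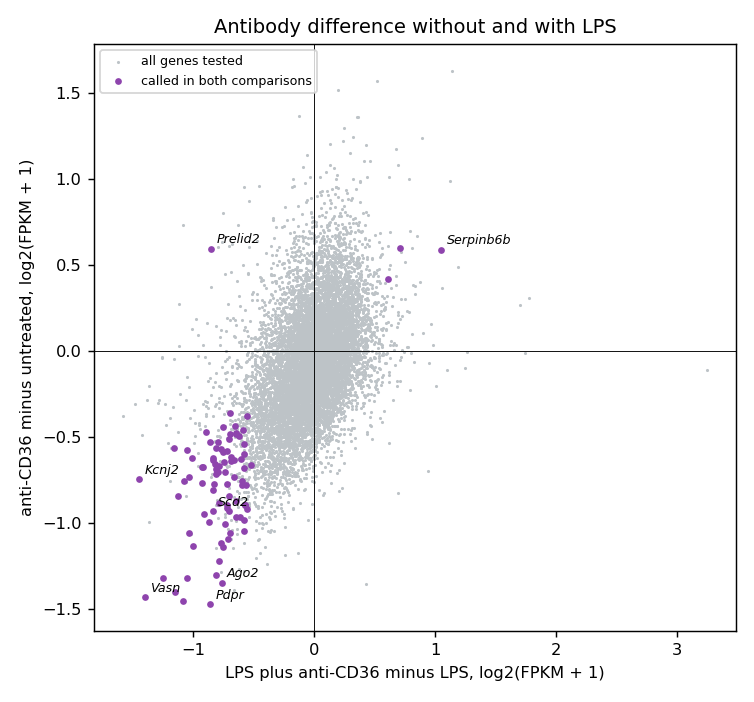
Each point is a gene, with LPS plus anti-CD36 minus LPS on the horizontal axis and anti-CD36 minus untreated on the vertical axis, both in log2(FPKM + 1). The 87 genes called in both (purple) lie at the lower left apart from the 3 that were higher in both and Prelid2 (0.60 and -0.85).

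LPS against untreated shares the untreated libraries with the antibody comparison, so its values are only set beside it. LPS had a difference from untreated of 3.06 for Spp1, 3.36 for Spink5 and 2.97 for Msr1, where anti-CD36 had 0.94, 1.37 and 0.75. For Nos2 LPS had 1.78 and anti-CD36 -0.90, for Dusp4 1.28 and -0.97, and for Clec5a -0.19 and 0.98. For Pdpr LPS had -1.27 and anti-CD36 -1.47, for Ago2 -0.34 and -1.35, and for Lrp1 -1.84 and -1.39.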

How the data were processed

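Bulk RNA was sequenced from 8 RAW264.7 libraries, placed in 4 groups by their labels. Per the labels' protocols, Trizol was used to extract RNA and libraries followed the standard Illumina method. The authors deposited FPKM values. Each library has its own column. HISAT2 2.0.5 is listed in the submitters' processing notes, with mm10 and hg38 as builds. How hg38 was used, which counter and gene models were taken, and how strand and multiply mapped reads were handled are not given in the sources used here, so values of genes with near-identical copies or overlapping neighbours are uncertain. No value in the table was 0, and genes outside the table were not analysed here.

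Because FPKM is not a count, log2(FPKM + 1) was tested with limma 3.58.1 (R 4.3.3), a scale that understates the change of low genes. Genes with at least 1 FPKM in at least 2 libraries were tested. The model had 4 group means over all 8 libraries, which share 1 spread (empirical Bayes with a variance trend, 4 residual and 3.46 prior degrees of freedom), with Benjamini-Hochberg adjustment over 10289 genes, two-sided. The steps were tested on simulated data in which each gene varied independently. Differences between libraries that many genes share, as seen here, were not simulated. Depth was recovered from the FPKM steps of short RNAs, of which 104 to 107 per library were whole reads within 0.05.

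Named genes were the 12 rises and 12 falls with the largest smallest difference between an anti-CD36 and an untreated library, at a mean of at least 5 FPKM, without pseudogenes and predicted genes. The rule also took Cd36, up to 4 members of each of 39 lists and 8 genes each way for the replicate difference. Other called list members and genes were added after their values were seen. A few counted genes are not reported here. The comparison, the lists and the rule were chosen with earlier results of these data known. Exon lengths and coordinates came from GENCODE M21 (GRCm38), with 10380 symbols matched, and promoters from RefSeq. The alternatives were a pseudocount of 0.1 or of 5, all genes kept, a mean of at least 5 FPKM, a difference of at least 1, quantile normalization, size factors, mitochondrial genes left out, the length trend removed, no variance trend, quality weights, the compared libraries only, a replicate block and each library left out. No library column was left unused.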

Additional observations from a re-analysis of the deposited data

Results flagged for a closer look

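Akap12, a scaffold that holds protein kinase A and protein kinase C at the membrane, was the only gene for which the antibody difference with LPS differed from that without LPS in limma (difference of 3.36 on the log2(FPKM + 1) scale, adjusted p = 0.00051). At a pseudocount of 0.1 the difference was 4.20 and missed the threshold (adjusted p = 0.055), with 0 genes called by limma and 1301 at an unadjusted p under 0.05. Under the other settings run for this difference Akap12 kept the call (adjusted p of 0.00015 to 0.015), but 6 genes were called at a pseudocount of 5, 2 with the length trend removed, 615 without anti-CD36 replicate 1 and 237 without replicate 2. It had 25.7 and 28.8 FPKM with LPS plus anti-CD36, against 1.95 and 1.98 FPKM with LPS. Without LPS it had 0.152 and 0.0932 FPKM with anti-CD36, against 0.139 and 0.292 FPKM in untreated cells. Akap12 was far higher in both libraries of LPS plus anti-CD36 than in both LPS libraries, and low in all 4 libraries without LPS.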

How the results depend on the processing

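The counts of calls in limma moved with the setting, while no called gene changed sign under any of them that tested it. For many settings that outcome was fixed in advance. In every called gene both anti-CD36 libraries lay on the same side of both untreated ones. Leaving out a library or changing the pseudocount therefore could not change the sign. Fits that changed only the model, the weights or the libraries used for the spread kept the same difference. Only the scalings could have changed a sign. Of 1405 genes called, 61 had a difference of at least 1 (16 higher, 45 lower), and 811 were called at a mean of at least 5 FPKM (597 lower). With the length trend removed 755 genes were called (357 lower), of which 536 were among the 1405. In the compared libraries alone or with quality weights 0 were called, higher and lower alike. Rises numbered 134 with mitochondrial genes left out, against 313. Falls numbered 639 with quantile normalization and 603 with size factors, against 1092. With 1 library left out, calls ranged 0 to 3730, rises 0 to 1491 and falls 0 to 2239. The lone library of a pair was then assumed to vary like the other groups. The median over all genes was -0.08, 0.00 with size factors and -0.16 with mitochondrial genes left out.

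Replicate numbers were not used to pair the libraries in the main fit. Across genes, r of replicate 1 minus 2 was -0.645 between anti-CD36 and untreated, and -0.337 to 0.530 between the other groups. These values cannot show whether the libraries were paired, since replicate differences also followed gene length. The replicate block gave 863 calls (163 higher, 700 lower), with 49 named genes losing their call and 1 gaining it, and 46 for LPS plus anti-CD36 against LPS. A crossed pairing, added after seeing the data, gave 1922 (485 higher) and 325.

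For LPS plus anti-CD36 against LPS, the 183 calls became 37 at a difference of at least 1, 88 at a mean of at least 5 FPKM, 121 with mitochondrial genes left out, 2307 in the compared libraries alone, 2013 with quality weights, and 1 to 1431 with 1 library left out. The interaction gave 0 calls at a pseudocount of 0.1, 6 at 5, 2 with the length trend removed and 1 to 615 with 1 library left out. Uncalled genes that turned over included Ubap2l (-0.65 without anti-CD36 replicate 1, 0.72 without replicate 2), Ubap2 (-0.85 and 0.50) and Cox14 (1.12 and -1.07). Other genes with large replicate differences turned over too, among them Rps19 (1.66 and -0.91), Rplp1 (1.52 and -0.80) and Rpl22l1 (2.36 and -0.45). The causes were not tested.

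Depth limits little here, since 3 reads in 2000 bp are at most 0.0313 FPKM. With 2 libraries a group and anti-CD36 replicates that differ by an SD of 0.451, the spread limits what can be called.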

Other observations

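Among the 61 genes that passed the test with a difference of at least 1, some belonged to none of the lists and were picked after their values were seen. Sorl1, an intracellular sorting receptor, had 22.02 and 15.4 FPKM with anti-CD36, against 37.1 and 40.7 FPKM in untreated cells, and it fell by 1.04 ± 0.16 (adjusted p = 0.016 in limma). Ankrd52, a regulatory subunit of the phosphatase that recycles Argonautes, had 12.01 and 7.72 FPKM with anti-CD36, against 21.02 and 23.9 FPKM in untreated cells, and it fell by 1.14 ± 0.18 (adjusted p = 0.016). Nr2c2, an orphan nuclear receptor, had 1.17 and 1.01 FPKM with anti-CD36, against 3.08 and 3.66 FPKM in untreated cells, and it fell by 1.06 ± 0.11. Scd3, a desaturase beside Scd1 and Scd2, had 2.79 and 1.36 FPKM with anti-CD36, against 4.44 and 5.87 FPKM in untreated cells, and it fell by 1.03 ± 0.23 (adjusted p = 0.030 in limma), and reads of such close paralogs may be split. Its call was lost with the length trend removed (adjusted p = 0.054), with quantile normalization (0.061) and with the replicate block (0.059). Pkd1, a large membrane receptor, had 1.58 and 1.78 FPKM with anti-CD36, against 4.22 and 4.54 FPKM in untreated cells, and it fell by 1.00 ± 0.10.

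The rises outside the lists included Cox6a2, a subunit of cytochrome oxidase known from heart and skeletal muscle, with 4.57 and 5.43 FPKM with anti-CD36, against 0.845 and 1.03 FPKM in untreated cells and a rise of 1.63 ± 0.22 (adjusted p = 0.014). Ifi202b, an interferon-inducible sensor of DNA, had 6.58 and 7.02 FPKM with anti-CD36, against 2.11 and 2.83 FPKM in untreated cells, and it rose by 1.18 ± 0.16 (adjusted p = 0.014). Cenpq, of the inner kinetochore, had 15.4 and 11.8 FPKM with anti-CD36, against 5.16 and 7.36 FPKM in untreated cells, and it rose by 1.01 ± 0.20. Dnttip2, of the nucleolus, had 38.9 and 33.1 FPKM with anti-CD36, against 15.5 and 19.3 FPKM in untreated cells, and it rose by 1.01 ± 0.15. In each gene of both paragraphs the anti-CD36 libraries did not overlap the untreated ones, as was true of all genes called.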
